A study of Saccharomyces cerevisiae with 10 samples.

Results

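The unnamed small open reading frames of Saccharomyces cerevisiae were examined in yeast that carried the [BIG+] prion and in naive yeast without it. Members were the rows of the deposited expression table with a nuclear systematic id that ends in a hyphen and a letter, no standard gene name in the R64 reference, and a mean of at least 5 TPM, a transcript's share of the library's RNA corrected for its length, over all 10 libraries. Ids that begin with YLR154, which lie in the ribosomal DNA, were left out. This gave 85 members of 410 unnamed hyphenated ids and of 7032 features in the table. The choice set no limit on length, and for the 58 members not listed in the R64 reference the length was not checked. Of the other unnamed ids, 263 had a mean below 1 TPM, 166 of these being listed at 0 in every library, and 62 had a mean of 1 to 5 TPM. Members were thus chosen by their mean TPM over both states together, and by no other measured value. All 85 members had a value above 0 in every library, and all were among the 5732 features with a mean of at least 1 TPM that were tested.

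The samples were 5 [BIG+] cultures, grown from 5 colonies that carried the prion, and 5 naive cultures, grown from 5 colonies that carried no prion. Both are labelled wild type in the BY4741 background, a haploid MATa laboratory strain with deletions or partial deletions of HIS3, LEU2, MET15 (MET17 in the table) and URA3, so those alleles are shared by both states. All cultures grew in rich medium at the same temperature to the same optical density. Total RNA was sequenced after depletion of ribosomal RNA. The 2 states carry different strain numbers, and the prion cannot be told apart from any other difference between these stocks. TPM are shares of the RNA of a whole culture, so less RNA per cell and fewer cells with the RNA cannot be told apart.

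The first annotation of the yeast genome left out most short reading frames, because short stretches without a stop codon arise often by chance. Frames found later by comparison of related yeasts, expression profiling, mass spectrometry or tagging received the id of a numbered frame close by with a further letter, and many still have no standard name. Some encode microproteins of membranes, the secretory pathway or protein complexes, and many others have no known product. [BIG+] is a heritable protein-based state that involves the pseudouridine synthase Pus4, an enzyme that modifies RNA.

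A pair of members carries the largest result and the highest level, and their reading frames are therefore shown together. The R64 RefSeq notes name YDR524C-B and YCL048W-A as paralogs from the whole genome duplication. YDR524C-B lies at chrIV:1489598-1489798 on the minus strand and has 66 codons before its stop, and YCL048W-A lies at chrIII:41488-41727 on the plus strand and has 79. Both are printed 5′ to 3′ on the coding strand from R64 RefSeq, with capitals for the bases that are identical between them in codons aligned through the proteins. Of 66 aligned residues 36 were identical, which is 54.5% of the shorter protein. Of 198 bases compared in aligned codons 124, or 62.6%, were identical. Capitals gather at both ends, where the proteins begin and end alike, and thin out in the middle, where YCL048W-A has additional codons. No other pair among the 351 pairs of the 27 members with an annotated frame reached 40% identity. YDL085C-A at chrIV:302464-302670 on the minus strand is shown as well, for its annotated role: the RefSeq note describes it as the homolog of worm MOAG-4 and human SERF1a, an enhancer of amyloid formation. It was chosen after its values were seen, and its capitals mark only the start and stop codons.
YDR524C-B: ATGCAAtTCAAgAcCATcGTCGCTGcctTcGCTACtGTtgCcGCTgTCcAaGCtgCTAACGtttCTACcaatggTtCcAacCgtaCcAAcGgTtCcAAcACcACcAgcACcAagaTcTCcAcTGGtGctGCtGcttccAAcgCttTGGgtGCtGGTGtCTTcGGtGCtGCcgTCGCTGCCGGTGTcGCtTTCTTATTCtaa
YCL048W-A: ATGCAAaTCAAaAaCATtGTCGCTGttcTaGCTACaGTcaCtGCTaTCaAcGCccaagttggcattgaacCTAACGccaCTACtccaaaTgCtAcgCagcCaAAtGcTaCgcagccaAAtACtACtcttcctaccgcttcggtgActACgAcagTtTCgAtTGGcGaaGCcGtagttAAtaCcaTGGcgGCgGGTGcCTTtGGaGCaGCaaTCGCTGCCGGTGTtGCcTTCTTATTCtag
YDL085C-A: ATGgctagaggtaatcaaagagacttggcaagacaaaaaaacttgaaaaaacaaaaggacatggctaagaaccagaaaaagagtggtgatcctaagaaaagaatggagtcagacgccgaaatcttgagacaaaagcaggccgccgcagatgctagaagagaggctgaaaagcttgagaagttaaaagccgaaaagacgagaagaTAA

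Before the results, several facts of the libraries bear on them. Totals were 999963 to 999982 TPM a library, and TPM keeps no read depth. Ribosomal RNA took 17.4% of the TPM in [BIG+] replicate 5, against 0.729 to 0.951% in the other [BIG+] libraries and 0.609 to 1.69% in the naive libraries. For some of the most abundant and most changed members the difference is also given without that library. The MATa genes STE2, BAR1, STE6 and AGA2 were present in all libraries, the MATalpha genes STE3, SAG1, MF(ALPHA)1 and MF(ALPHA)2 stayed between 0.169 and 3.25 TPM, HMLALPHA1 reached at most 0.258 TPM, and LEU2, URA3 and MET17 were listed at 0. HIS3, whose allele in this strain is a partial deletion, had 18.4 to 55.0 TPM, and the short a-factor genes MFA1 and MFA2 were listed at 0. Libraries of the same replicate number deviated together in both states, so values from the fit with the replicate number as a block are given where they change a call.

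YCL048W-A was lower in [BIG+] than in naive yeast, and it was the sole member called in the fit with the replicate block. Its tagged protein is annotated at the cell periphery and the vacuole, and its function is not known. It had 4.84, 4.68, 6.88, 5.04 and 6.18 TPM in [BIG+] replicates 1 to 5, against 13.7, 17.4, 11.6, 9.69 and 23.6 TPM in naive replicates 1 to 5. Every [BIG+] library lay below every naive library, and the naive libraries spread more widely. The means were 5.52 ± 0.957 TPM in [BIG+] and 15.2 ± 5.52 TPM in naive yeast (SD, n = 5 each), a ratio of 0.364. On the log2(TPM + 1) scale the difference was -1.26 ± 0.22 (SE), and this scale understates the change of a low gene. In limma without the block the unadjusted p was 5.24e-05 and the Benjamini-Hochberg adjusted p over all 5732 features was 0.15, which misses the threshold of 0.05. Blocking on the replicate number gave an adjusted p of 0.0116, and blocking on the sets of replicates 1 and 2, 3 and 4, and 5 gave 0.00299. Without the block, scaling by median of ratios, by quantiles or to the nuclear mRNA total gave adjusted p-values of 0.042, 0.0484 and 0.0414. Without replicate 2 the blocked difference was -1.15 with an adjusted p of 0.05, and a pseudocount of 10 TPM shrank the unblocked difference to -0.67. Without [BIG+] replicate 5 the unblocked difference was -1.30 with an adjusted p of 0.258, and the fit blocked by sets gave -1.13 with an adjusted p of 0.0114.

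Its paralog YDR524C-B was the most abundant member by far, and ranked 9 among all features of the table by mean TPM. How the authors corrected for length is not stated, and the level and rank of a frame this short depend on that correction. Fusions of its protein are annotated at the endoplasmic reticulum. It had 9829, 11605, 12286, 12155 and 12732 TPM in [BIG+] replicates 1 to 5, against 13807, 14189, 15429, 16268 and 13320 TPM in naive replicates 1 to 5. All [BIG+] values again lay below all naive values, with the smallest difference within replicate 5. The ratio of means was 0.803, and the difference was -0.32 ± 0.12 on the log2(TPM + 1) scale. It was not called in limma, with an adjusted p of 0.999 without the block (unadjusted 0.0159) and of 0.314 with it. As a share of nuclear mRNA TPM instead of all TPM, it took 2.07, 2.52, 2.72, 2.81 and 2.39% in [BIG+], against 2.93, 2.99, 3.61, 3.53 and 2.52% in naive yeast. On that scale naive replicate 5 fell among the [BIG+] libraries, so the groups overlapped, and the log2 difference was -0.31. Without [BIG+] replicate 5 the difference in TPM was -0.35 (adjusted p = 0.977).

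The paralogs lay at very unequal levels, and both had lower means in [BIG+]. YDR524C-B averaged 13162 TPM over all libraries and YCL048W-A 10.4 TPM. Both reading frames stand clear of other genes listed in R64 RefSeq, while frames that it does not list were not searched. The nearest annotated genes to YCL048W-A are YCL049C, an opposite-strand gene of unknown function 763 bases away, and SPS22, a same-strand gene of the spore wall 437 bases away. YCL049C had 12.1 ± 4.79 TPM in [BIG+] and 11.5 ± 2.25 TPM in naive yeast (SD, n = 5 each), a log2 difference of 0.02 that was not called (adjusted p = 0.999). SPS22 averaged 0.191 TPM in [BIG+] and 0.155 TPM in naive yeast. Of the genes nearest to YDR524C-B, the opposite-strand YDR524W-C is listed at 0. It has 90 bases, and every nuclear mRNA feature with an R64 length of up to 160 bases is at 0 here. That 0 therefore says only how the gene is listed. API2, also on the opposite strand, averaged 0.191 TPM in [BIG+] and 0.208 TPM in naive yeast.

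**Figure D1:**
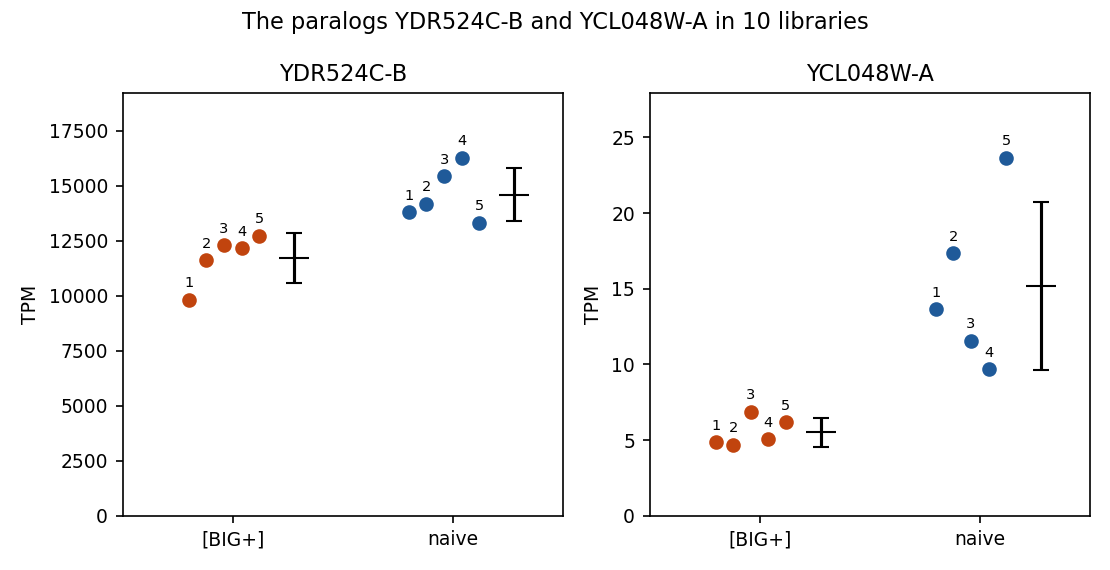
TPM of YDR524C-B and YCL048W-A in the 5 [BIG+] and 5 naive libraries, each on its own linear axis from 0; points are libraries numbered by replicate, and the black marks are means with SD. Every [BIG+] value lies below every naive value for both, with YCL048W-A between 4.68 and 6.88 TPM in [BIG+] and between 9.69 and 23.6 TPM in naive yeast.

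The 250 bases before each start, from R64, were searched on both strands for 5 short motifs. AGGGG, the core of the stress response element, occurred once before YCL048W-A and not before YDR524C-B, and it occurred before 6 of the 27 annotated members (22.2%) and 18.8% of all 6001 promoters. GATGAG, the core of the PAC element of ribosome biogenesis genes, was likewise found once before YCL048W-A and not before YDR524C-B, and before 7 members (25.9%) against 17.0% of all promoters. TATAAA, the core promoter element, was before 10 members (37.0%) and 43.4% of all promoters, and before neither paralog. CACGTG, the E-box, and TGAAACA, the pheromone response element, were before no member, against 2.7% and 6.1% of all promoters. These matches describe letters in a window and not binding.

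Among the 85 members the [BIG+] and naive groups overlapped for most, while an unadjusted p under 0.05 in limma was more frequent than over all features. Limma without the block called no feature of the table lower or higher (0% of 5732 called), and so no member. At an unadjusted p under 0.05, 8 members (9.41%) were lower and 0 higher in [BIG+], against 1.43% of all features lower and 0.244% higher (1.67% in all). These 8 were YAL037C-B, YCL048W-A, YDR034C-A, YDR524C-B, YJL156W-A, YLR146W-A, YMR173W-A and YOL097W-A. With the replicate block 1 member was called lower and 0 higher, against 0.576% of all features lower and 0.0349% higher. At an unadjusted p under 0.05 in that fit 24 members (28.2%) were lower and 3 (3.53%) higher, against 9.47% and 1.87% of all features (11.3% in all). Blocking on the sets of replicates also called 1 member lower and 0 higher, against 0.698% and 0.0523% of all features. Groups did not overlap, with [BIG+] lower, for 2 members (2.35%, against 0.262% of all features) and, with [BIG+] higher, for 0 members (0.122% of all features). No test of these shares was made, and the features they are set beside include those with a mean of 1 to 5 TPM.

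Most members had lower means in [BIG+], and so did most features of the table. The log2 difference was below 0 for 58 members, or 68.2%, beside 66.3% of all tested features and 58.3% of those with a mean of at least 5 TPM. Its median was -0.11 over the members, with the middle part of them, by quartiles, between -0.31 and 0.04, beside -0.06 over all features and -0.03 over those of at least 5 TPM. No test of these medians was made. Without the paralogs the median over the remaining 83 members was -0.09. The 27 members listed in R64 RefSeq had a median of -0.17, and the 58 not listed had -0.08. Among named hyphenated ids with at least 5 TPM the median was -0.06 over 105, and among unnamed hyphenated ids of 1 to 5 TPM it was -0.09 over 62. Lower values in all 5 pairs of the same number were seen for 9 members, or 10.6%, beside 10.3% of all features, and higher values in all 5 pairs for YBR076C-A alone among the members, beside 1.97% of all features.

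**Figure D2:**
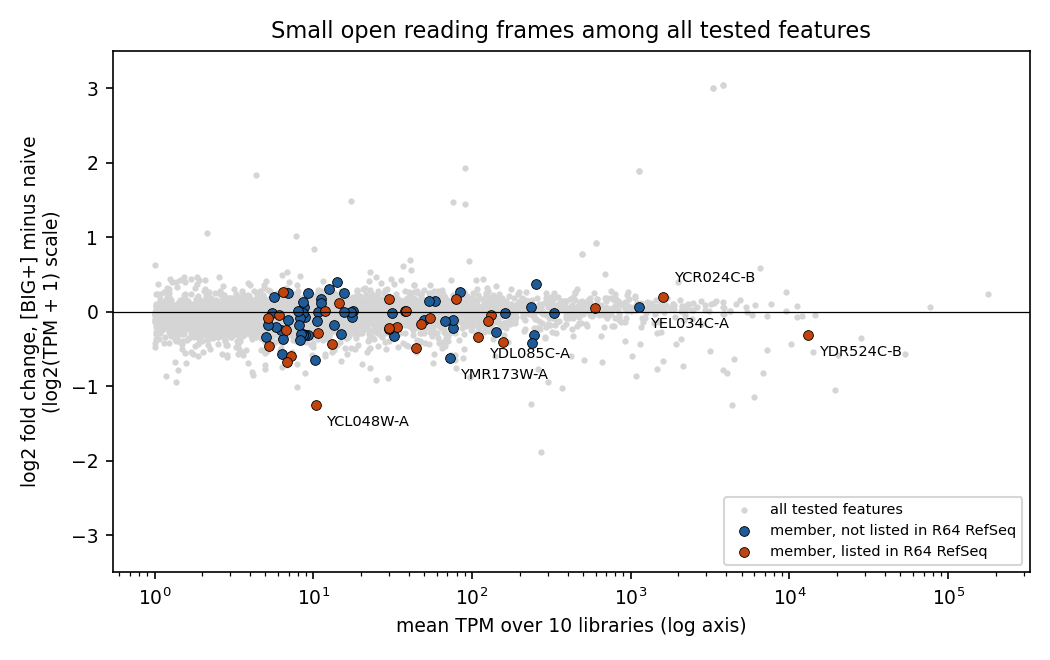
Log2 difference, [BIG+] minus naive on the log2(TPM + 1) scale, against mean TPM on a log axis for the 5732 tested features (grey), the 58 members not listed in R64 RefSeq (blue) and the 27 listed (orange). YCL048W-A at -1.26 stands below the other members, 58 of the 85 members lie below 0, and YDR524C-B lies at the far right.

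The sum of the members' TPM followed YDR524C-B. All members together took 1.71, 1.87, 1.90, 1.88 and 1.98% of the TPM in [BIG+] replicates 1 to 5, against 2.10, 2.10, 2.21, 2.29 and 2.08% in naive replicates 1 to 5. All [BIG+] shares were below all naive shares, and the ratio of the mean sums was 0.866. As a share of nuclear mRNA TPM the sum was 3.61 to 4.35% in [BIG+] and 3.95 to 5.18% in naive yeast, so that there the groups overlapped. YDR524C-B alone made up 57.3 to 64.7% of that sum in [BIG+] and 63.9 to 71.0% in naive yeast. Without it the other 84 members took 0.665 to 0.732% in [BIG+] and 0.665 to 0.752% in naive yeast, ranges that overlap.

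Members with an annotated role or a located protein come next, and apart from the paralogs, YPR170W-B, YDR034C-A and YLR157W-D they were chosen after their values were seen. YDL085C-A, the SERF homolog, had 72.5, 66.0, 128, 82.6 and 128 TPM in [BIG+], against 63.1, 108, 135, 119 and 193 TPM in naive yeast. It was lower in [BIG+] in 4 of 5 pairs, while the groups overlapped widely, and the log2 difference of -0.34 ± 0.28 was not called (adjusted p = 0.999, and 0.407 with the block). YPR170W-B, a putative component of the vacuolar proton pump, had 737, 564, 566, 618 and 554 TPM in [BIG+], against 673, 640, 586, 567 and 484 TPM in naive yeast. The groups covered nearly the same range, with a log2 difference of 0.04. Its RefSeq note names dubious frames that it partly overlaps, so its level is uncertain. YIL102C-A, a regulatory subunit of dolichyl phosphate mannose synthase, which makes a sugar donor for glycosylation, averaged 31.3 ± 5.23 TPM in [BIG+] and 36.1 ± 5.77 TPM in naive yeast (SD, n = 5 each). Its log2 difference was -0.20.

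The proteins of YGL194C-A and YJR112W-A, like those of YDR524C-B and YIL102C-A, are annotated at the endoplasmic reticulum. YGL194C-A averaged 10.9 ± 2.31 TPM in [BIG+] and 15.4 ± 5.14 TPM in naive yeast, a log2 difference of -0.43. YJR112W-A averaged 9.62 ± 1.51 TPM in [BIG+] and 11.9 ± 1.98 TPM in naive yeast, a log2 difference of -0.28. Each was lower in [BIG+] in 4 of 5 pairs and neither was called, with adjusted p-values in the blocked limma fit of 0.314 and 0.419. YCL021W-A, whose fusions are annotated at the vacuole, averaged 6.13 ± 1.96 TPM in [BIG+] and 7.39 ± 1.84 TPM in naive yeast and was not called either.

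The annotation ties a further group to DNA replication stress, in which the protein becomes more abundant or moves within the cell. YBR085C-A had 119, 112, 131, 94.6 and 172 TPM in [BIG+], against 106, 119, 115, 83.8 and 273 TPM in naive yeast. Replicate 5 was the highest in both states, and the log2 difference was -0.05. YLR363W-A, of the nucleus, averaged 52.4 ± 13.9 TPM in [BIG+] and 55.8 ± 14.9 TPM in naive yeast, and YBL029C-A, of the cell periphery, 45.2 ± 6.45 TPM in [BIG+] and 51.0 ± 8.71 TPM in naive yeast (SD, n = 5 each). YLR363W-A was lower in [BIG+] in 5 of 5 pairs, by -0.03 to -0.20 on the log2 scale. None of the 3 was called.

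A few annotated members lie in repeated DNA, where reads of near-identical copies may be split or shared, so their levels are uncertain. YDR034C-A lies within a long terminal repeat of a Ty1 retrotransposon and had 159, 109, 117, 128 and 161 TPM in [BIG+], against 153, 152, 171, 203 and 217 TPM in naive yeast. It was lower in [BIG+] in 4 of 5 pairs, the groups overlapped, and the log2 difference of -0.41 was not called (limma adjusted p = 0.999, and 0.255 with the block). YOR192C-C and YLR157W-D also overlap mobile elements. YOR192C-C averaged 6.12 ± 2.71 TPM in [BIG+] and 6.06 ± 1.22 TPM in naive yeast, and YLR157W-D averaged 4.06 ± 1.10 TPM in [BIG+] and 6.43 ± 3.43 TPM in naive yeast (SD, n = 5 each). YLR157W-D also has a paralog by segmental duplication, YLR161W. Overlap with another gene listed in R64 RefSeq was found for 2 of the 27 annotated members. Overlap with frames that RefSeq does not list was not searched, and the note of YPR170W-B names such dubious frames. YER145C-A shares 239 bases with LSM5, an RNA-binding Lsm protein gene on the other strand, and YNL042W-B shares 84 bases with a tRNA gene on its own strand. Whether reads were counted by strand is not given in the sources used here, so reads from the bases that YER145C-A and LSM5 share cannot be told apart. YER145C-A averaged 38.3 ± 5.17 TPM in [BIG+] and 38.1 ± 5.57 TPM in naive yeast, and LSM5 131 ± 21.8 TPM in [BIG+] and 132 ± 22.2 TPM in naive yeast.

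Several abundant members below YDR524C-B had similar means in both states. YCR024C-B, found by expression profiling and mass spectrometry, had 1859, 1855, 1728, 2032 and 1099 TPM in [BIG+], against 1604, 1332, 1829, 1549 and 1119 TPM in naive yeast. Replicate 5 was the lowest in both states, and the log2 difference of 0.19 ± 0.19 was not called (limma adjusted p = 0.999). Without [BIG+] replicate 5 it was 0.35. Its neighbour PMP1, a same-strand gene 79 bases away for a regulator of the plasma membrane proton pump, is listed at 0. With 123 bases PMP1 falls in the range of up to 160 bases, where no feature has a value above 0. Whether reads were shared between PMP1 and YCR024C-B was not tested. The gene on the other side of YCR024C-B, SLM5, averaged 2.37 TPM in [BIG+] and 2.53 TPM in naive yeast. YEL034C-A had 955, 1127, 1099, 977 and 1660 TPM in [BIG+], against 1027, 1223, 910, 1034 and 1320 TPM in naive yeast. Replicate 5 was the highest in both states, and the log2 difference was 0.06, or -0.08 without [BIG+] replicate 5. YEL053W-A, YJL026C-A and YHR063W-A had log2 differences of -0.02, 0.06 and -0.02, and of -0.03, 0.16 and -0.18 without that library.

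Other abundant members showed unequal means without a call. YAL037C-B had 201, 178, 194, 194 and 238 TPM in [BIG+], against 299, 173, 289, 300.5 and 312 TPM in naive yeast. Naive replicate 2 alone lay below all the [BIG+] libraries, and the log2 difference was -0.42 (limma adjusted p = 0.999, and 0.232 with the block). YCR018C-A had 159, 126, 110, 115 and 133 TPM in [BIG+], against 168, 146, 137, 157 and 165 TPM in naive yeast. Each of its 5 pairs had the lower value in [BIG+] although the groups overlapped. Its log2 difference was -0.27, with an adjusted p of 0.342 in the blocked limma fit. YPR002C-A averaged 223 ± 67.7 TPM in [BIG+] and 267 ± 28.4 TPM in naive yeast, a log2 difference of -0.31, or -0.42 without [BIG+] replicate 5. YHR182C-A had 296, 327, 290, 214 and 300 TPM in [BIG+], against 191, 210, 184, 207 and 329 TPM in naive yeast. Apart from naive replicate 5, its naive values were all below the [BIG+] values, and the log2 difference of 0.37 was not called (adjusted p = 0.999, and 0.372 with the block).

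Apart from YCL048W-A, the largest decreases belonged mostly to low members, and none was called. YNL042W-B, the frame that overlaps a tRNA gene, had 10.9, 6.03, 5.32, 0.821 and 3.71 TPM in [BIG+], against 13.9, 10.01, 8.93, 4.09 and 4.68 TPM in naive yeast. It was lower in [BIG+] in 5 of 5 pairs while the groups overlapped, with a log2 difference of -0.67 and an adjusted p of 0.141 in the blocked limma fit and of 0.42 in the fit blocked by sets. Without [BIG+] replicate 4, its lowest library, the difference was -0.28. How reads from the bases shared with the tRNA gene were counted is not given, so the level of YNL042W-B is uncertain. YJL156W-A averaged 7.82 ± 3.16 TPM in [BIG+] and 12.7 ± 3.87 TPM in naive yeast (log2 difference -0.65), and YOL097W-A averaged 5.41 ± 0.963 TPM in [BIG+] and 9.15 ± 3.38 TPM in naive yeast (-0.59). YMR173W-A had 70.6, 70.7, 56.7, 31.8 and 53.1 TPM in [BIG+], against 112, 102, 57.5, 60.6 and 110 TPM in naive yeast. It was lower in [BIG+] in 5 of 5 pairs, by -0.63 on the log2 scale, with a blocked adjusted p of 0.12. The gene with the same id number and strand letter, DDR48, a stress-induced gene, averaged 42.4 ± 9.35 TPM in [BIG+] and 58.4 ± 19.5 TPM in naive yeast, a log2 difference of -0.42 that was not called (adjusted p = 0.999, and 0.257 with the block). No position of YMR173W-A was used here, so reads shared with DDR48 cannot be told apart.

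The largest increases were smaller and less even. YER066C-A had 37.0, 25.2, 4.30, 10.3 and 3.51 TPM in [BIG+], against 21.8, 28.4, 4.90, 3.90 and 2.52 TPM in naive yeast. Replicates 1 and 2 were high in both states, and the log2 difference of 0.40 ± 0.67 lay well within that spread. It ran from -0.01 to 0.81 as each library was left out. YIL156W-A averaged 14.2 ± 6.88 TPM in [BIG+] and 10.9 ± 3.88 TPM in naive yeast (log2 difference 0.31, or 0.405 without [BIG+] replicate 5). Again replicates 1 and 2 were the highest in both states. YFR052C-A and YGR240C-A had log2 differences of 0.27 each, from pair differences of -0.36 to 1.21 and of -1.12 to 1.39. For YGR240C-A it was 0.65 without [BIG+] replicate 5. YBR076C-A, chosen after its values were seen, had 20.4, 17.2, 16.6, 15.7 and 15.2 TPM in [BIG+], against 18.2, 16.3, 13.99, 12.2 and 11.0 TPM in naive yeast. The groups overlapped, and its log2 difference of 0.25 had a blocked adjusted p of 0.365.

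**Figure D3:**
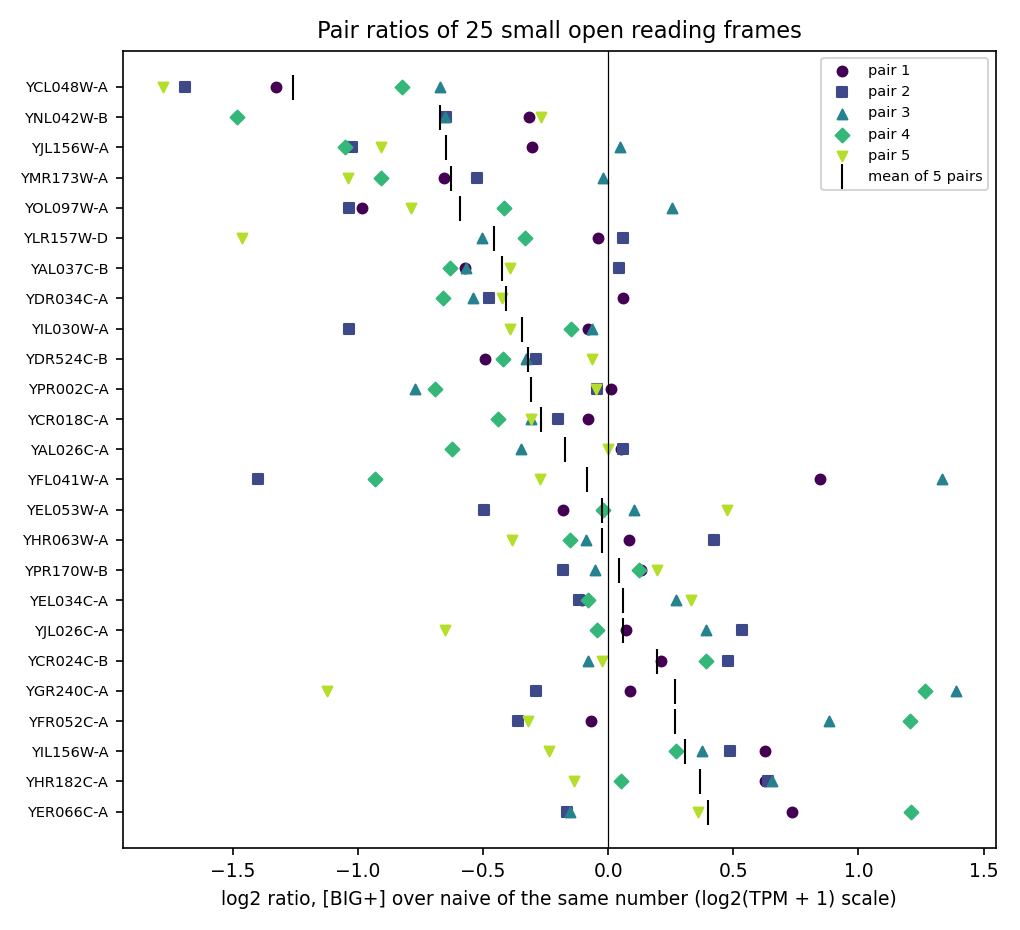
Log2 ratio of [BIG+] over naive for each of the 5 pairs of libraries with the same replicate number, on the log2(TPM + 1) scale, for 25 members in the order of their mean, with the mean of the 5 pairs as a black bar. All 5 points of YCL048W-A lie between -1.78 and -0.67, while most other members have points on both sides of 0.

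Spread between libraries of the same state was described by the SD of log2(TPM + 1) within a state, with no test. Its median was 0.40 over the members, 0.36 over those listed in R64 RefSeq and 0.43 over those not listed. It was 0.31 over named hyphenated ids with at least 5 TPM and 0.33 over all features with at least 5 TPM, beside median levels of 14.2 TPM for members, 67.2 TPM for those named ids and 17.1 TPM for all features with at least 5 TPM. Part of the spread followed the replicate number in both states. For example, YHR063W-A had 91.5, 105, 179, 176 and 227 TPM in [BIG+], against 86.2, 77.8, 191, 196 and 297 TPM in naive yeast, so that replicates 1 and 2 were low and replicate 5 high in each. Its SE of the log2 difference was 0.36 without the replicate block and 0.12 with it.

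Levels of the members spanned from 5.05 to 13162 TPM, with a median of 14.2. Of the 85, 31 averaged 5 to 10 TPM, 39 averaged 10 to 100 TPM and 15 averaged at least 100 TPM, 3 of these at least 1000. The 27 members listed in R64 RefSeq had a median level of 30.1 TPM and the 58 not listed had 11.9 TPM, yet 8 of the 15 members above 100 TPM were not listed. At the lower limit of the choice, the last members inside were YIL030W-A, YFL041W-A, YAL026C-A and YLR157W-D, with means of 5.05 to 5.25 TPM. The first left outside were YPL119C-A, YIR036W-A, YER158W-A and YOL013W-A, with means of 4.66 to 4.98 TPM. YOL013W-A averaged 3.43 TPM in [BIG+] and 6.54 TPM in naive yeast, a log2 difference of -0.78. YER158W-A averaged 3.47 TPM in [BIG+] and 6.46 TPM in naive yeast, a log2 difference of -0.71. Neither was called in the fit without the block, and the limit on the mean passed close by both.

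The 58 members not listed in R64 RefSeq have no position or length here, but their ids name a numbered frame close by. For 37 of them the strand letter of the id is the opposite of that frame's, and for 21 it is the same. In 36 cases the member had the higher level of the pair by mean TPM, which is per length. YEL034C-A averaged 1133 TPM over all libraries while HYP2, its opposite-letter frame for the translation factor eIF5A, is listed at 0 in every library. YJL026C-A averaged 234 TPM beside 386 TPM for RNR2, a subunit of ribonucleotide reductase, and YDL185C-A, chosen after its values were seen, averaged 17.3 TPM beside 309 TPM for VMA1, a catalytic subunit of the vacuolar proton pump. How the authors' counting split reads between frames that overlap is not given in the sources used here, so these levels are uncertain.

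**Figure D4:**
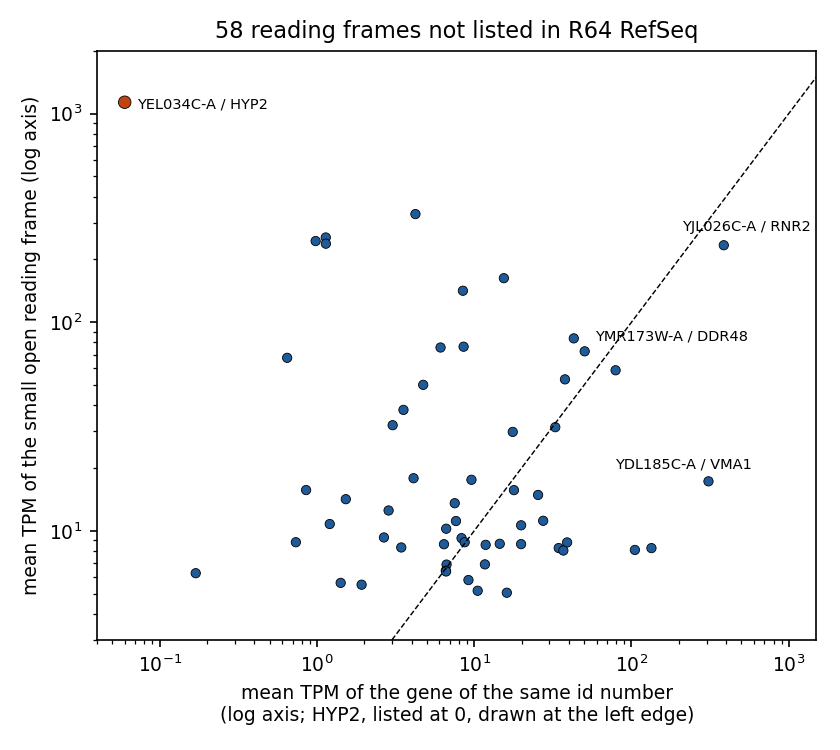
Mean TPM over 10 libraries of the 58 members not listed in R64 RefSeq (vertical) against that of the numbered gene with the same id (horizontal), both on log axes, with a dashed line of equal level. In 36 cases the point lies above the line, and YEL034C-A is drawn at the left edge because HYP2 is listed at 0.

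The shortest reading frames with a length in R64 had no value above 0 in this table. Among 5895 nuclear mRNA features with a length in R64, all 78 of up to 160 bases were listed at 0 in every library, and 57 of these were unnamed hyphenated ids. Of 29 features of over 160 and up to 180 bases 8 were at 0, and of 25 features of over 180 and up to 200 bases 1 was. Above that length values at 0 were rare, with 0 of 93 features of over 200 and up to 250 bases and 8 of 920 features of over 300 and up to 600 bases. The shortest of these features with a value above 0 had 162 bases. Genes used by most cells are among those at 0, such as PMP1 with 123 bases, so 0 here says only how the feature is listed. The 27 annotated members had 177 to 711 bases with a median of 240. All 27 were complete frames from start to stop, and 5 exceeded 100 codons, the longest being YKL033W-A with 236, which averaged 84.1 ± 6.01 TPM in [BIG+] and 74.5 ± 4.06 TPM in naive yeast.

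**Figure D5:**
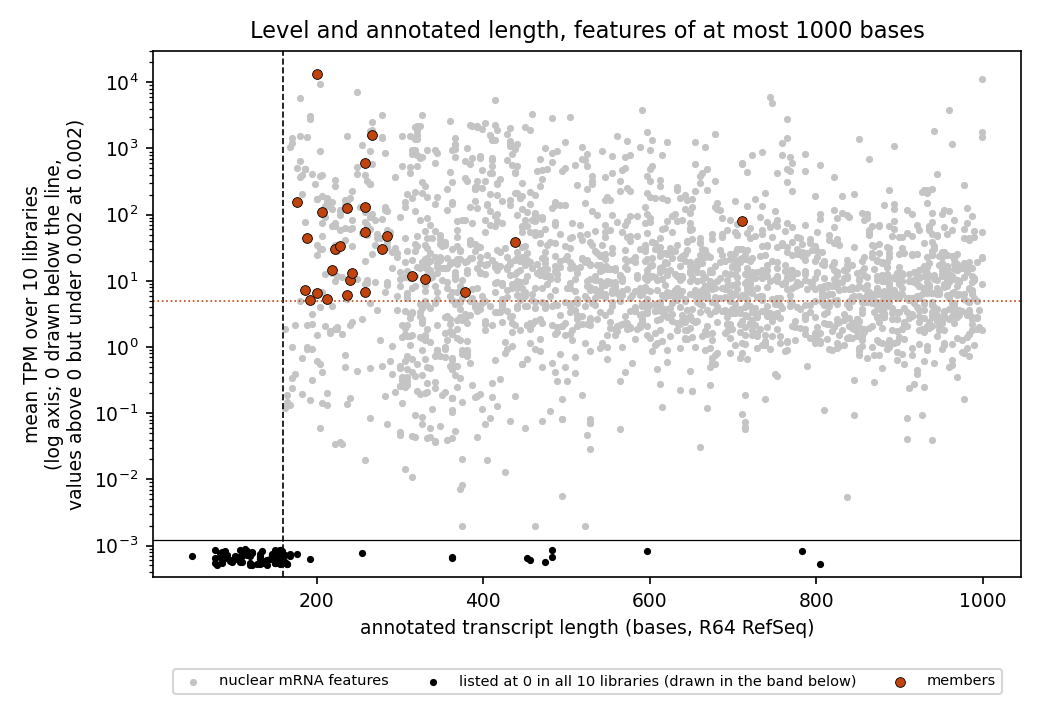
Mean TPM over 10 libraries on a log axis against annotated transcript length in bases for nuclear mRNA features of at most 1000 bases (grey), with members in orange and features listed at 0 in black below the line. All 78 features of up to 160 bases (dashed line) are at 0, and the dotted line marks the 5 TPM minimum of the members.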

How the data were processed

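Per the labels' protocols, total RNA of 10 yeast cultures was depleted of ribosomal RNA and sequenced. The authors deposited one table in TPM per feature and library. The submitters' processing notes name Bowtie2, HTSeq and build R64. The sources used here give neither the annotation, nor the strand setting, nor how TPM were computed. TPM sums to the same total in every library and keeps no depth, so no counting interval is given. Values were used as log2(TPM + 1). Features with a mean of at least 1 TPM were fitted together with limma 3.58.1 (lmFit and eBayes with trend, two-sided, R 4.3.3), with Benjamini-Hochberg adjustment over all of them and a threshold of 0.05. The state was the sole term. A second fit added the replicate number as a block, and a further fit the sets of replicates 1 and 2, 3 and 4, and 5. The numbers were taken to pair the libraries from the data: deviations of same-numbered [BIG+] and naive libraries from their state means correlated at 0.74, 0.57, 0.53, 0.35 and 0.47. Libraries of different numbers within a set correlated as well ([BIG+] 1 with naive 2 at 0.64, [BIG+] 2 with naive 1 at 0.57, [BIG+] 3 with naive 4 at 0.46 and [BIG+] 4 with naive 3 at 0.52), hence the fit by sets; other combinations reached at most 0.31. The labels mention separate colonies for each state but no shared day or batch. In the fit without a block, p-values measure the spread between these colonies. In the blocked fits they measure the spread left after a pairing taken from these same data. The scripts were tested on simulated data.

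Members, lists and rules were chosen with earlier results of these data known. Named members were those called in the fit without or with the block, those whose states do not overlap, the 12 with the highest mean, the 5 with the largest difference in each direction, the 4 on each side of the minimum of 5 TPM, their neighbours, and members whose proteins are at least 40% identical; others are said to be chosen after their values were seen. Positions, reading frames, notes and promoters came from R64 RefSeq (Python 3.11.15, pandas 2.3.3, Biopython 1.88; figures with matplotlib 3.10.9), which lists 27 of the 85 members by id. Alternatives changed the pseudocount, the filter, the scaling, the trend, the block and the set of libraries.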

Additional observations from a re-analysis of the deposited data

Results flagged for a closer look

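Among the 25 named members, each state's 5 libraries were screened with Dixon's ratio, and 4 of 50 groups held a library farther from the others than its 95% limit for 5 values allows; chance alone gives about 1 in 20. YEL034C-A was highest in [BIG+] replicate 5, at 1660 TPM against 955 to 1127 TPM in the other [BIG+] libraries; that library also has the high share of ribosomal RNA, whose part in the value was not tested. YLR157W-D was highest in [BIG+] replicate 4, at 5.97 TPM against 3.34 to 4.01 TPM in the other [BIG+] libraries. YHR182C-A was highest in naive replicate 5, at 329 TPM against 184 to 210 TPM in the other naive libraries. YAL037C-B was lowest in naive replicate 2, at 173 TPM against 289 to 312 TPM in the other naive libraries.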

How the results depend on the processing

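Without a block limma called 0 features and 0 members; median-of-ratios scaling, quantile normalization and nuclear mRNA scaling each called 3 features, and the replicate block and the block by sets 35 and 43, with 1 member, YCL048W-A, under each of these 5. The blocked count of 35 features became 16, 4, 8, 18 and 30 without replicates 1 to 5, a range of 4 to 30, and was 14 with median-of-ratios scaling and 17 with quantile normalization, both added after the data were seen, and the blocked count of members was 0 to 1, the 0 being without replicate 2. The cause was not tested. The block changed no other member's call.

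Members whose states do not overlap numbered 1 with nuclear mRNA scaling and 2 to 5 when each library was left out: 5 without naive replicate 2 (YAL037C-B, YER165C-A and YKL033W-A beside the paralogs) and 4 without naive replicate 5 (YGR161W-C and YHR182C-A beside them). The members' median log2 difference ran from -0.17 to -0.04 over the alternatives, below that of all features in each, and the ratio of summed TPM from 0.853 to 0.901. YDR524C-B ran from -0.35 to -0.18 over 20 alternatives with adjusted p-values of 0.19 to 1. YCL048W-A ran from -1.39 to -0.67 over 20 alternatives, with limma adjusted p-values of 0.0414 to 0.529 in those without a block. Over 12 alternatives to the blocked fit its adjusted p-values were 0.00299 to 0.05. Of 512 values of the 25 named members, 24 turned sign, none of them called. Depth is unknown, and no value above 0 exists for nuclear mRNA features of up to 160 bases among those with a length in R64.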

Other observations

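YPR169W-A, chosen after its values were seen, had 87.1, 93.6, 112, 79.5 and 17.5 TPM in [BIG+] replicates 1 to 5, against 72.1, 60.4, 102, 67.4 and 64.6 TPM in naive replicates 1 to 5. [BIG+] replicate 5, the library with 17.4% ribosomal RNA, was the lowest of the 10, and in the other 4 pairs [BIG+] was the higher. The RefSeq note of YPR170W-B names YPR169W-A as a dubious frame that it partly overlaps, and YPR170W-B had 554 TPM in the same library, against 564 to 737 TPM in the other [BIG+] libraries. Whether reads were split between the frames was not tested.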
